A study of Mus musculus with 27 samples.

Results

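This account describes 34 mouse genes of cholesterol and lipid handling in brain, bone marrow, spleen and embryonic stem cell derived cells. The genes were chosen by function, with earlier results of these data known. They are 12 genes of sterol synthesis, 5 regulators of sterol and lipid genes and 6 genes of lipid uptake and lysosomal release. The others are 5 genes of efflux and storage and 6 genes of fatty acid synthesis and binding. Of the 34, 31 had a probe named for them, out of 19057 genes so named in the series. A total of 29 of the 34 passed the detection filter, as did 12814 genes in all. Hmgcs1 (an early synthase of the sterol pathway), Fdft1 (squalene synthase) and Soat1 (which esterifies cholesterol) were not analysed here. Acaca (acetyl-CoA carboxylase) and Fabp4 (a fatty acid binding protein of fat cells and macrophages) had a named probe that was detected on 0 of the 27 arrays.

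The series set ES-cell derived microglia, called ESdM, beside primary cells of C57BL/6 mice on single-colour Illumina bead arrays. Astrocyte (3 arrays) and Microglia (3) cells came from brain with an age given as day 3, and Neuron (3) cells from brain at embryonic day 15 to 16. Lines ESdM 20 and ESdM 22 (3 arrays each) had been cultured for more than 51 days, MF (4) and BM-DC (3) cells came from bone marrow with an age of day 7, and CD8 Tnaive (5) cells came from spleen at 6 to 8 weeks. The labels gave no genetic change or added agent for any group, did not spell out MF and BM-DC (read here as macrophages and dendritic cells), and did not say whether replicates were separate animals or cultures. Test results therefore measure the spread between these arrays, which may be technical, and each ESdM line stands for itself alone.

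Cells make cholesterol from acetyl-CoA through mevalonate, squalene and lanosterol, or take it up in lipoproteins, whose esters are cleaved in the lysosome and whose cholesterol then leaves through the Npc proteins. The transcription factors encoded by Srebf1 and Srebf2 switch on synthesis and uptake when membrane sterol is low, and Insig1 holds them back when it is high. Oxysterols activate the receptor encoded by Nr1h3, which turns on efflux genes such as Abca1, Abcg1 and Apoe. In the brain, where little lipoprotein arrives from blood, glia are known to make cholesterol and export it on apolipoprotein E.

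Several arrays did not match what their labels would lead a reader to look for. On the Microglia arrays 9 of 11 named homeostatic microglia markers were undetected, P2ry12, Tmem119 and Cx3cr1 among them, while 10 of 11 macrophage lineage markers were detected on all 3. On ESdM arrays 7 (ESdM 20) and 6 (ESdM 22) of those microglia markers were undetected, as were the complement genes C1qa, C1qb and C1qc. The other 8 of 11 macrophage lineage markers were detected on all arrays of both lines. The Astrocyte arrays carried both astrocyte markers (summed intensity 30700 to 35000) and microglia core markers (12000 to 15200, against 229 to 241 on the Microglia arrays). They also carried macrophage lineage markers, at 6160 to 9980. Among the Neuron arrays the astrocyte list ranged from 2290 to 7040 and was highest on array 2. Of 8 dendritic cell markers, BM-DC arrays lacked 5 (Flt3, Zbtb46, Dpp4, Cd209a and Ccl22). The other 3 (Itgax, Ccr7 and Batf3) were detected on all BM-DC arrays and called higher there than on Microglia arrays. All 5 tested granulocyte markers were also detected on BM-DC arrays (3050 to 5090, against 212 to 251 on MF arrays). Cd8a was undetected on CD8 Tnaive arrays and the other 6 tested genes of that list were detected on all 5. Arrays 1 and 3 of that group carried the macrophage genes Csf1r (6.93 and 7.31) and Adgre1 (7.34 and 7.82) above the other 3 arrays. Median raw intensity was 27.6 to 28.6 on BM-DC arrays and at least 80.1 on each of the others, and 14247 to 17533 probes were detected per array. In such bulk RNA, fewer cells of a type and less RNA per cell cannot be told apart.

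The promoters of the sterol genes are shown because the choice of genes did not use their sequence. RefSeq windows (GRCm38.p6, 250 bases before to 50 after the start) were at hand for 24 of the 34 genes. All 10 sterol synthesis genes with a window held CCAAT on either strand, as did 41.1% of all 27025 genes with a window. All 10 also held GGGCGG on either strand, against 38.2% of all genes. Each of these motifs was in 20 of the 24 genes, among them 4 of 5 regulators and 3 of 3 uptake and lysosomal genes. The E-box CACGTG was in 6 of the 24, of which Dhcr7, Hsd17b7 and Sc5d are sterol enzymes (8.09% of all genes), and the sterol element form TCACNCCAC was in Hmgcs1 alone among the 24 (1.44% of all genes). CACGTG and TCACNCCAC can share bases, and so can overlapping copies of GGGCGG.

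The 150 bases before the start are given for 5 enzymes described below and for Lipa, which differed most between ESdM and Microglia arrays. They read 5′ to 3′ on the gene's strand, with CCAAT and GGGCGG of either strand in capitals. Cyp51 lies at chr5:4104698-4104847 (minus strand), Hsd17b7 at chr1:169969206-169969355 (minus), Nsdhl at chrX:72918371-72918520 (plus), Lss at chr10:76531455-76531604 (plus), Mvd at chr8:122443423-122443572 (minus) and Lipa at chr19:34527475-34527624 (minus).
Cyp51: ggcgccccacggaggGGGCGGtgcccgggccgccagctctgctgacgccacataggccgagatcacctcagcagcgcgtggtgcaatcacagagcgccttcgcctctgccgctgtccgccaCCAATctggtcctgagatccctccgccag
Hsd17b7: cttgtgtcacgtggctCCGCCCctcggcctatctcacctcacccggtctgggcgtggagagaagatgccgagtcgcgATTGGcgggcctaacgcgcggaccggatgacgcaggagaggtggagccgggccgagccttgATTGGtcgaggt
Nsdhl: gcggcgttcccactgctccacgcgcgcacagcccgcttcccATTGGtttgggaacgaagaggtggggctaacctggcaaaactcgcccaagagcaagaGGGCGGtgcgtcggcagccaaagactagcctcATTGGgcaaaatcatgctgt
Lss: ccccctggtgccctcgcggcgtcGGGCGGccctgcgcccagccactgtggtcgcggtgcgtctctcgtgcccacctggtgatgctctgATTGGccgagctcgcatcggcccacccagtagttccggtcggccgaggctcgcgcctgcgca
Mvd: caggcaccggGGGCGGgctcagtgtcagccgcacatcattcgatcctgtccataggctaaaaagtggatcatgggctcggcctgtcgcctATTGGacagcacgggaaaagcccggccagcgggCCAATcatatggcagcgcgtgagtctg
Lipa: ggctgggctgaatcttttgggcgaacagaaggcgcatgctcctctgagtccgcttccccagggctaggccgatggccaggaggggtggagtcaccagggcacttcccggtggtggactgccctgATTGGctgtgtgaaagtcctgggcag
In these stretches Hsd17b7, Nsdhl and Mvd held 2 copies of CCAAT, and Cyp51, Lss and Lipa held 1. GGGCGG was present in 1 copy in each of the 5 enzymes. These matches are a description of letters and were not tested against the array values.

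Levels below are log2 intensities after background correction and quantile normalisation, and each gene is compared only with itself, since probes differ in brightness. The lowest level detected on an array lay between 4.52 and 4.78. A gene was called different between groups when limma's adjusted p was below 0.05 and the log2 difference was at least 1. Where one of these genes was undetected on some or all arrays of the lower group, the fold is given as a lower bound from that floor. For related lipid genes outside the list, a bound is given only where no array of the lower group detected the gene. Fitted differences given for Mgll, Plin3, Acsl4 and Dgat1, for Sort1 between ESdM and MF, and for Ch25h between Astrocyte and Neuron arrays rest partly on undetected values.

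The lipid genes varied widely between cell types. The range of the 8 group means was 3.34 at the median of the 29 genes and 1.93 at the median of all 12814. The 29 were chosen with earlier results of these data known and were not matched to the others by level. These medians are therefore a description only. MF arrays had the highest mean of 12 of the 29, all in uptake, efflux, storage, regulation and fatty acid binding except the isomerase gene Idi1, while 10.4% of all genes were highest there. Cd36 and Abca1 are among the 12 but passed the detection filter through MF arrays. ESdM 20 arrays had the highest mean of 9, among them the enzyme genes Sqle, Cyp51, Dhcr7, Mvk and Nsdhl (6.96% of all genes). CD8 Tnaive arrays had the lowest mean of 11 (18.8% of all genes) and Neuron arrays of 8 (20.4%).

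**Figure D1:**
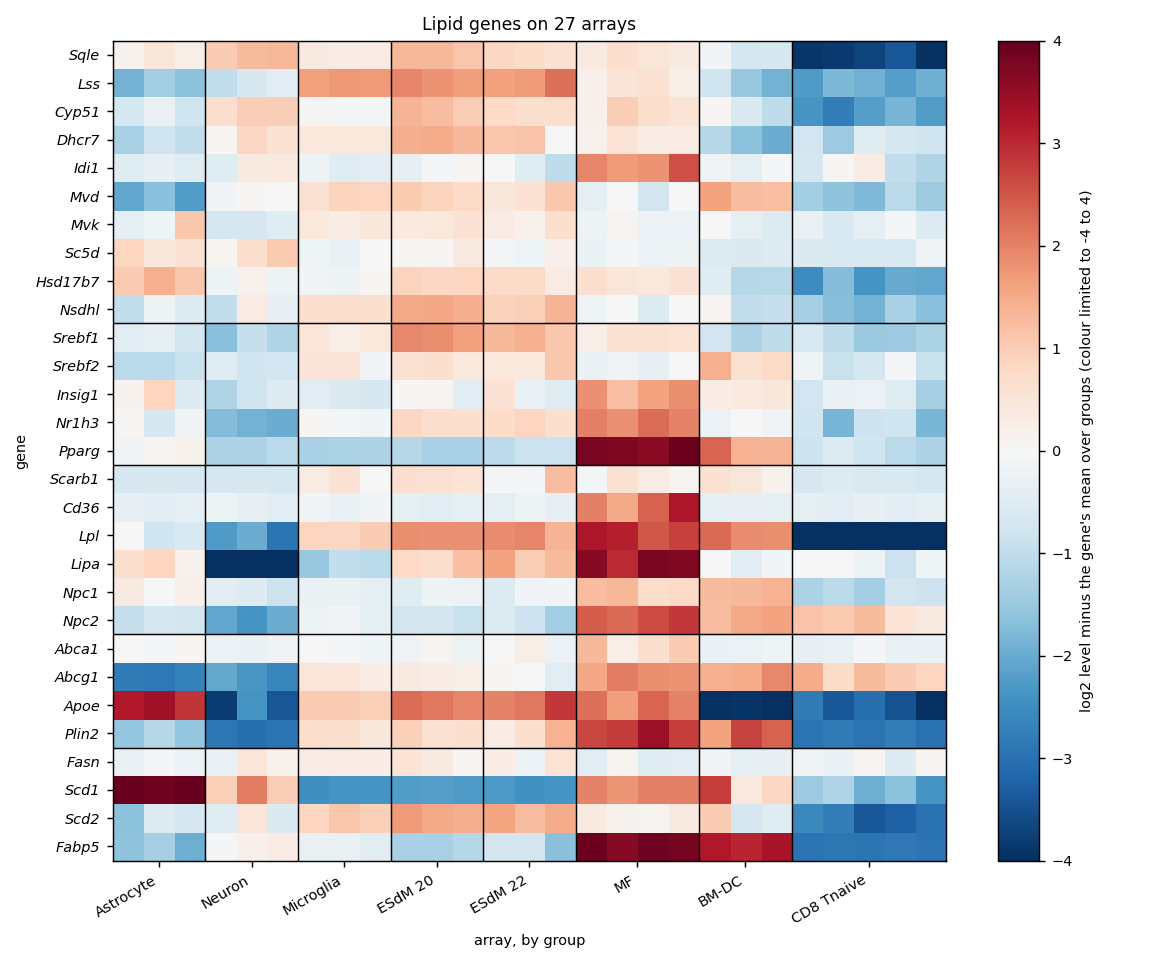
Level of the 29 genes (rows, by functional list) on 27 arrays (columns, by group), as log2 level minus the gene's mean over the 8 group means; red is higher, blue lower, and colours stop at 4 either way. The MF block is red for Pparg, Cd36, Lipa, Npc2, Plin2 and Fabp5, the ESdM blocks are red for Sqle, Lss and Srebf1, and the CD8 Tnaive block is blue for most rows.

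Of the sterol synthesis genes, Sqle, Cyp51, Lss, Hsd17b7, Nsdhl and Idi1 had their lowest mean on CD8 Tnaive arrays, Dhcr7 and Sc5d on BM-DC, Mvd on Astrocyte and Mvk on Neuron arrays. Sqle, the epoxidase that acts on squalene, was detected on all 27 arrays. Its levels were 11.73, 11.72 and 11.53 on ESdM 20, 11.24, 11.16 and 11.04 on ESdM 22, and 10.77, 10.71 and 10.76 on Microglia arrays. Neuron arrays lay at 11.42, 11.69 and 11.74, MF arrays at 10.79, 11.10, 10.91 and 10.77, and Astrocyte arrays at 10.55, 10.87 and 10.64. BM-DC arrays lay lower on this probe, at 10.30, 9.75 and 9.76, and CD8 Tnaive arrays at 6.46 to 7.04 (median 6.59). CD8 Tnaive arrays overlapped no other group, and the ESdM 20 and Neuron ranges overlapped each other. Sqle was 18.6-fold lower on CD8 Tnaive than on MF arrays (log2 difference -4.22 ± 0.124 SE, adjusted p = 2.5e-20), and a second Sqle probe gave -2.94. That probe did not show the lower BM-DC level, with an MF minus BM-DC difference of -0.07 and a Microglia minus BM-DC difference of -0.04.

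Cyp51, the demethylase that acts on lanosterol, was likewise highest on ESdM 20 arrays. It read 9.93, 9.82 and 9.57 on ESdM 20, 9.36, 9.23 and 9.28 on ESdM 22 and 8.62, 8.50 and 8.48 on Microglia arrays. It read 9.25, 9.57 and 9.56 on Neuron arrays and 7.86, 8.28 and 7.78 on Astrocyte arrays, which did not overlap. The Astrocyte minus Neuron difference was -1.49 ± 0.227 (adjusted p = 2.9e-06). The reductase gene Dhcr7, which acts at the last step to cholesterol, also lay lower on Astrocyte (5.47, 5.97 and 5.78) than on Neuron arrays (6.83, 7.61 and 7.35), by -1.53 ± 0.259 (adjusted p = 1.3e-05).

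Lss was high on Microglia and ESdM arrays and Mvd on BM-DC arrays too, and both were low on Astrocyte arrays. Lss, which closes squalene epoxide into lanosterol, read 9.45, 9.54 and 9.51 on Microglia arrays and 9.45 to 9.99 over the 6 ESdM arrays. It read 8.01, 8.32, 8.42 and 8.07 on MF, 6.82, 7.15 and 7.34 on Neuron, 5.93, 6.41 and 6.18 on Astrocyte and 7.01, 6.29 and 5.92 on BM-DC arrays. Microglia and ESdM arrays were above every array of those 4 groups. Lss was 10.1-fold lower on Astrocyte than on Microglia arrays (log2 difference -3.33 ± 0.206, adjusted p = 1.8e-13). A second Lss probe lay near the floor on average (4.53).

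Mvd, the decarboxylase that ends the mevalonate branch, read 7.93, 8.22 and 8.19 on Microglia arrays and 5.27, 5.67 and 5.10 on Astrocyte arrays. It was 6.80-fold lower on the latter (-2.77 ± 0.201, adjusted p = 4.8e-12). Unlike Lss, it had its highest mean on BM-DC arrays, at 8.96, 8.58 and 8.52, above the 4 MF arrays at 6.93, 7.34, 6.60 and 7.32. Idi1, the isomerase that supplies the second isoprene unit, was high on MF arrays alone, at 7.52, 7.29, 7.38 and 8.14, with group means of 5.07 to 5.66 elsewhere.

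Hsd17b7, a sterol ketone reductase, was highest on Astrocyte arrays, as was Sc5d, and read 10.22, 10.63 and 10.30 there, against 9.11, 9.0 and 9.30 on Microglia arrays (1.25 ± 0.186, adjusted p = 1.8e-06). A second Hsd17b7 probe lay near the floor (mean 4.44). Nsdhl, which removes a methyl group of the sterol ring, read 7.91 to 8.01 on ESdM 20, 7.38 to 7.84 on ESdM 22 and 7.12 to 7.18 on Microglia arrays, and its means in the other groups were 4.89 to 6.29. Mvk (mevalonate kinase) and Sc5d (a sterol desaturase) lay near the floor throughout, with group means of 4.29 to 5.37 and 4.29 to 5.46.

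**Figure D2:**
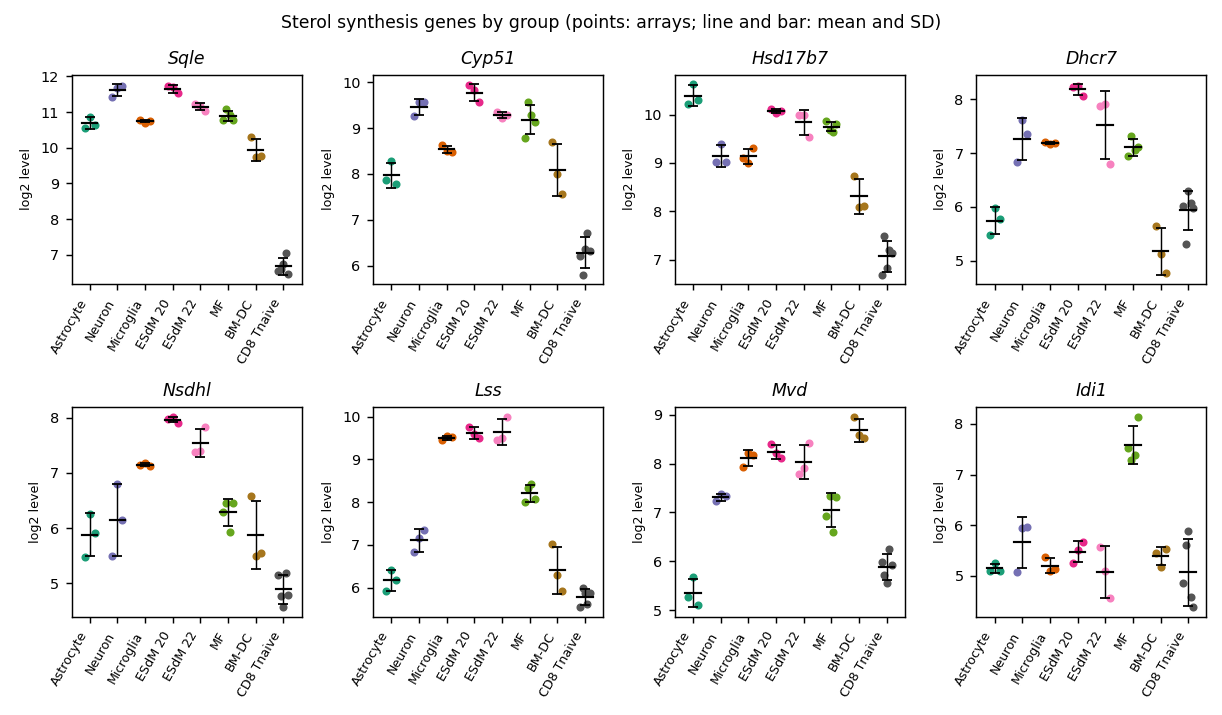
Log2 level of 8 sterol synthesis genes by group; each point is 1 array and the line and bar are the group mean and SD, with a separate vertical scale for each gene. Sqle and Cyp51 were lowest on CD8 Tnaive arrays (means 6.67 and 6.29), Lss and Mvd were low on Astrocyte arrays (6.17 and 5.35), and Idi1 was high on MF arrays (7.58).

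The regulators did not move together. Pparg, the fatty acid receptor of fat cells and macrophages, was detected on all MF arrays (9.32, 9.27, 9.14 and 9.46), all BM-DC arrays (7.85, 6.93 and 6.89) and all Astrocyte arrays (5.43, 5.63 and 5.68). It was undetected on all Microglia, Neuron and ESdM 20 arrays and detected on 1 of 3 ESdM 22 arrays. MF arrays were at least 25.2-fold above Microglia arrays (fitted log2 difference -5.03, adjusted p = 2.2e-18). A second Pparg probe gave a Microglia minus MF difference of -2.37.

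Nr1h3, the oxysterol receptor, was also highest on MF arrays, at 8.17, 7.99, 8.40 and 8.15. It lay at 6.79 to 7.00 over the 6 ESdM arrays and at 6.19, 6.06 and 6.03 on Microglia arrays, which did not overlap, and it was undetected on Neuron arrays. A second Nr1h3 probe lay near the floor (mean 4.39). Srebf1, whose product drives fatty acid and sterol genes, was highest on ESdM arrays instead. It read 7.84, 7.78 and 7.56 on ESdM 20, 7.20, 7.33 and 6.98 on ESdM 22, 6.40, 6.18 and 6.33 on Microglia and 6.17, 6.50, 6.51 and 6.45 on MF arrays. ESdM arrays were above all others, and Microglia and MF arrays overlapped.

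Srebf2, the main activator of sterol synthesis, varied less, with group means from 6.37 (Astrocyte) to 8.31 (BM-DC). Its Astrocyte minus Microglia difference was -1.32 ± 0.229 (adjusted p = 1.7e-05) and -1.20 on a second probe. Insig1, which retains these factors in the endoplasmic reticulum, read 10.47, 9.84, 10.25 and 10.50 on MF and 8.21, 8.05 and 8.01 on Microglia arrays. That probe put Microglia -2.17 below MF, but 2 further Insig1 probes gave -0.08 and -0.23, so the difference was seen on 1 of 3 probes. For CD8 Tnaive against MF arrays all 3 probes were lower (-2.25, -2.37 and -2.66).

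Lipa, the lysosomal acid lipase that frees cholesterol from its esters, differed most of the 29 genes between ESdM and Microglia arrays. It read 10.85, 10.76 and 11.26 on ESdM 20, 11.66, 11.05 and 11.34 on ESdM 22 and 8.56, 9.07 and 8.99 on Microglia arrays. MF arrays lay above all of these, at 13.71, 13.05, 13.82 and 13.76. All 6 ESdM arrays were thus between the Microglia and the MF arrays. Lipa was 4.87-fold higher on ESdM than on Microglia arrays (log2 difference 2.28, 95% interval 1.76 to 2.81, adjusted p = 3.3e-07), and a second probe gave 2.14. It was 26.3-fold lower on Microglia than on MF arrays (-4.72 ± 0.275, adjusted p = 1.4e-13).

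Elsewhere Lipa read 10.72, 10.91 and 10.24 on Astrocyte, 10.06, 9.60 and 9.96 on BM-DC and 9.21 to 10.09 on CD8 Tnaive arrays (median 9.90). Neuron arrays were lowest, at 4.50, 5.88 and 5.85, with the first undetected. The Astrocyte arrays also carried the microglia and macrophage markers given above, whose part in the Lipa level was not tested.

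Lpl, which releases fatty acids from lipoproteins, was detected on all arrays but 3. It read 14.61, 14.49, 13.86 and 14.13 on MF, 13.64, 13.27 and 13.25 on BM-DC, 12.75 to 13.33 on ESdM and 12.23, 12.21 and 12.39 on Microglia arrays. Astrocyte arrays lay at 11.35, 10.60 and 10.77 and Neuron arrays at 9.12, 9.39 and 8.47. On this probe, these 6 groups followed each other downward, with ESdM and BM-DC arrays overlapping. With the mean of the 2 Lpl probes, Microglia minus BM-DC was -0.51 (-1.11 on the probe used). Astrocyte minus Microglia was then -0.67 (-1.37 on the probe used), and neither was called. MF minus BM-DC was 1.18 with that mean and was called. Among CD8 Tnaive arrays it was detected on arrays 1 and 3, at 5.50 and 6.28, and read 4.20, 4.24 and 4.22 on the other 3. The 2 arrays with Lpl are those with the macrophage genes Csf1r and Adgre1, and the part of that signal was not tested. Lpl was at least 555-fold lower on CD8 Tnaive than on MF arrays, and at least 777-fold without arrays 1 and 3.

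Npc2, which hands lysosomal cholesterol to Npc1, was highest on MF arrays, at 11.99, 11.82, 12.18 and 12.41. It read 10.79, 11.08 and 11.18 on BM-DC, 9.93 to 10.84 on CD8 Tnaive, 9.36, 9.47 and 9.22 on Microglia and 8.19 to 9.03 over the 6 ESdM arrays. It was 6.76-fold lower on Microglia than on MF arrays (-2.76 ± 0.197, adjusted p = 7.7e-12). Npc1, the membrane partner, had 4 probes that disagreed: from Microglia to MF arrays the probe used gave -1.33, and the others gave -4.11, 1.25 and -0.11. No direction is given for Npc1 on this ground.

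Cd36, a scavenger receptor and fatty acid carrier, was detected on MF arrays alone, at 6.62, 6.13, 6.99 and 7.86. They were at least 4.79-fold above Microglia arrays. Cd36 passed the detection filter through these arrays alone, so its calls higher on MF arrays follow partly from the filter. They are a description only. Scarb1, the receptor for high-density lipoprotein, was detected on every Microglia, ESdM, MF and BM-DC array, with group means of 5.09 to 5.45, and on no Astrocyte, Neuron or CD8 Tnaive array.

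Apoe, the main apolipoprotein of the brain, was highest on Astrocyte arrays, at 11.76, 11.92 and 11.41. It read 10.53 to 11.38 over the 6 ESdM arrays, 10.76, 10.24, 10.88 and 10.54 on MF and 9.57, 9.59 and 9.52 on Microglia arrays. Neuron arrays lay at 4.77, 6.22 and 5.13, BM-DC arrays at 4.62, 4.66 and 4.36 with the last undetected, and CD8 Tnaive arrays at 4.54 to 5.73. Astrocyte arrays were above all others and the 2 bone marrow groups did not overlap. Apoe was at least 63-fold higher on MF than on BM-DC arrays (6.06 ± 0.270, adjusted p = 9e-16) and 80.2-fold higher on Astrocyte than on Neuron arrays (6.32 ± 0.289, adjusted p = 3.1e-16). The Neuron array with the highest Apoe, array 2, also had the highest Slc1a3 (12.05, against 10.47 and 10.34), an astrocyte glutamate transporter, and its part was not tested.

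Abcg1, which exports cholesterol to lipoproteins, was highest on MF (8.76, 9.25, 9.09 and 9.01) and BM-DC arrays (8.64, 8.71 and 9.13), which overlapped. It lay at 7.96 to 8.69 on CD8 Tnaive, 7.70, 7.70 and 7.53 on Microglia and 6.79 to 7.56 on ESdM arrays, and was undetected on Astrocyte arrays. Microglia arrays were at least 8.54-fold above Astrocyte arrays (adjusted p = 1.9e-14). Abca1, the exporter to lipid-free apolipoproteins, was detected on the 4 MF arrays (5.78, 4.75, 5.12 and 5.49) and on 1 ESdM 22 array (4.73), all near the floor. It too passed the detection filter through MF arrays.

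Plin2, a coat protein of lipid droplets, was highest on the bone marrow arrays. It read 10.01, 10.14, 10.76 and 10.09 on MF, 8.94, 10.05 and 9.69 on BM-DC, 8.04, 7.98 and 7.78 on Microglia and 7.67 to 8.72 on ESdM arrays, and 5.78, 6.21 and 5.80 on Astrocyte arrays. It was undetected on Neuron and CD8 Tnaive arrays. MF arrays were at least 48.7-fold above CD8 Tnaive arrays (adjusted p = 3.8e-19).

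Fabp5, a fatty acid carrier in the cytosol, read 11.05, 10.76, 11.03 and 10.95 on MF and 10.34, 10.18 and 10.41 on BM-DC arrays. It read 7.05, 7.32 and 7.46 on Neuron, 6.83, 6.84 and 6.69 on Microglia, 5.82, 5.84 and 6.00 on ESdM 20 and 6.40, 6.39 and 5.47 on ESdM 22 arrays. The bone marrow groups were above every other array. Fabp5 was 17.9-fold lower on Microglia than on MF arrays (-4.16 ± 0.168, adjusted p = 8.1e-17), and at least 79.0-fold lower on CD8 Tnaive arrays, where it was undetected (adjusted p = 5.7e-23).

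The stearoyl-CoA desaturases Scd1 and Scd2, which make monounsaturated fatty acids, differed in where they were high. Scd1 read 10.67, 10.54 and 11.09 on Astrocyte, 8.64, 8.43, 8.66 and 8.67 on MF, 7.61, 8.71 and 7.63 on Neuron and 9.43, 7.04 and 7.48 on BM-DC arrays. It was undetected on all 3 Microglia and all 6 ESdM arrays, and low on CD8 Tnaive arrays (4.30 to 5.44). Astrocyte arrays were at least 69.9-fold above Microglia arrays (adjusted p = 5e-14), and MF arrays at least 15.5-fold (adjusted p = 1e-10).

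Scd2 was highest where Scd1 was undetected, at 9.56, 9.38 and 9.34 on ESdM 20, 9.44, 9.11 and 9.34 on ESdM 22 and 8.74, 8.99 and 8.84 on Microglia arrays. It read 8.24, 8.02, 7.97 and 8.23 on MF and 6.24, 7.31 and 7.20 on Astrocyte arrays, which did not overlap with Microglia arrays. The Astrocyte minus Microglia difference was -1.94 ± 0.328 (adjusted p = 1.2e-05). Scd1 and Scd2 are close paralogs, and cross-hybridisation of their probes was not tested. Fasn, the fatty acid synthase, lay near the floor in every group, with means of 4.51 to 5.17.

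**Figure D3:**
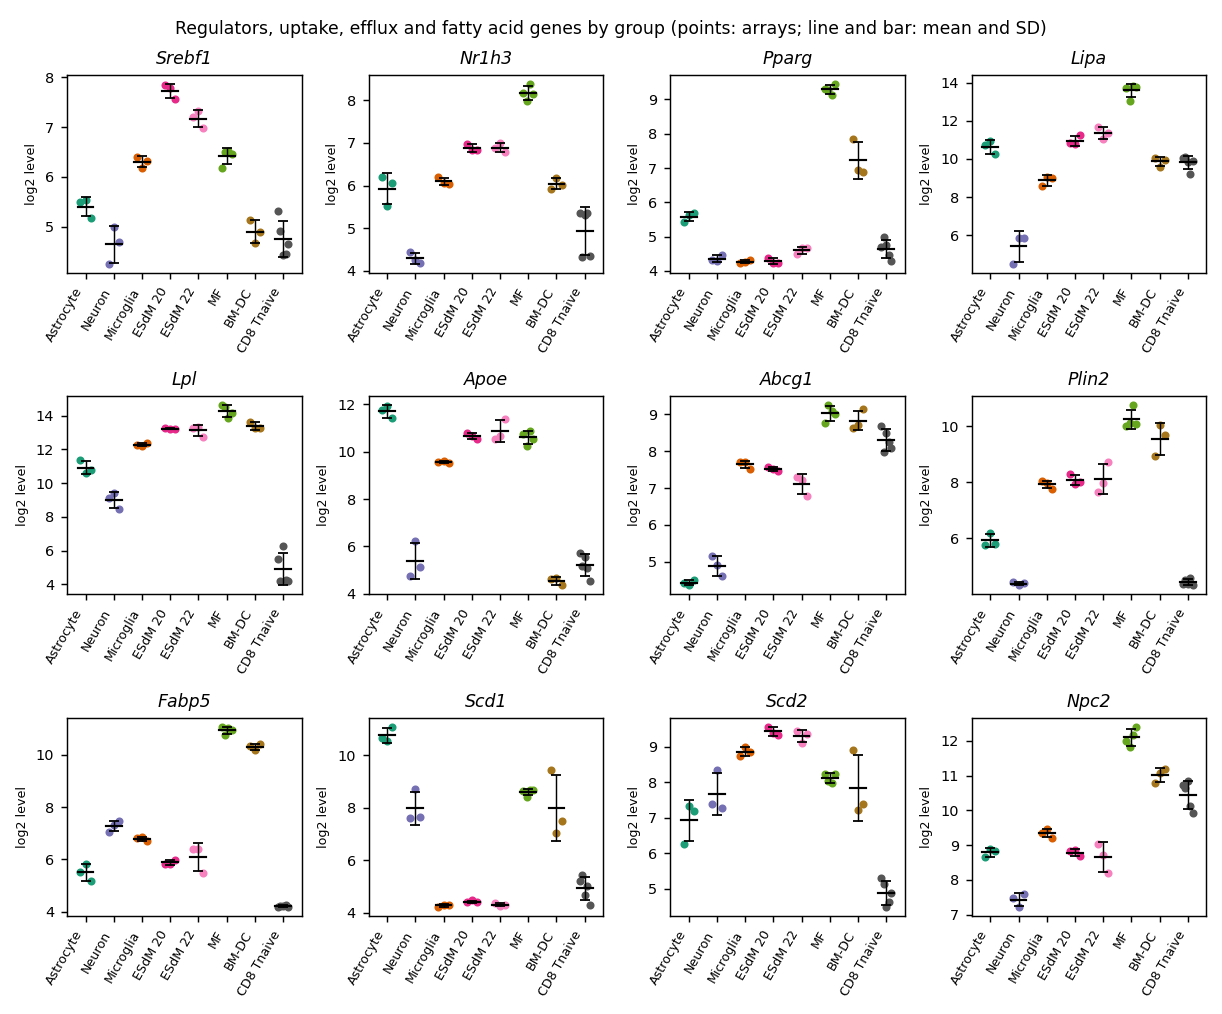
Log2 level of 12 regulator, uptake, efflux, storage and fatty acid genes by group; points are arrays, line and bar the group mean and SD, and each gene has its own vertical scale. Scd1 sits at the floor on Microglia and ESdM arrays (means 4.27 to 4.42) where Scd2 is at 8.86 to 9.42, and Lipa rises from Microglia (8.87) through ESdM (10.96 and 11.35) to MF (13.59).

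Between ESdM and Microglia arrays Lipa, Apoe and Srebf1 differed beyond the fold minimum, and several sterol and lipid genes by less. These 3 of the 29 genes were called higher on ESdM arrays and 0 lower, where 2.07% of all genes tested were called, 0.601% higher and 1.47% lower. Apoe was 2.31-fold higher (1.21 ± 0.250, adjusted p = 0.0014) and Srebf1 2.21-fold (1.15 ± 0.170, adjusted p = 2.6e-05). An adjusted p below 0.05 at any size was found for 9 of the 29 genes (12.2% of all genes), and the arrays did not overlap for 12 of the 29 (20.8% of all genes), these 3 included. Of 11 tested macrophage lineage markers, C1qb (at least 8.29-fold), C1qc (at least 2.45-fold) and Aif1 (-1.22) were called lower on ESdM arrays. The other 8 were not called, and the list median was -0.06. The part of these markers was not tested. On the chip that held 1 Microglia and 3 ESdM arrays the differences were 2.68 for Lipa, 1.07 for Apoe and 1.11 for Srebf1, values that rest on a single Microglia array. Within the other shared chip, with 2 Microglia and 3 ESdM arrays, Lipa alone of the 3 was called, with Apoe at 1.22 (adjusted p = 0.11) and Srebf1 at 1.10 (adjusted p = 0.0628). The Srebf1 difference fell under the minimum with no background correction (0.67), an offset of 50 (0.89) and the series matrix (0.72), and limma's treat, which tests against the minimum itself, called Lipa alone.

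All 10 sterol synthesis genes tested had a positive ESdM minus Microglia difference, with a median of 0.42 where the median of all genes was 0.01. Within shared chips the sign was not uniform. Mvk lay at -0.06 on the chip with a single Microglia array and Mvd at -0.07 on the other. Of the 10 genes, 0 reached the fold minimum over all arrays. Cyp51 came nearest, at 1.99-fold (95% interval of the log2 difference 0.59 to 1.40, adjusted p = 0.00086), and it was called without Microglia array 1 (1.04), ESdM 20 array 3 (1.05) or ESdM 22 array 2 (1.01). Hsd17b7 lay at 0.82 (adjusted p = 0.00079), Sqle at 0.66 (adjusted p = 0.00087) and the regulator Nr1h3 at 0.79 (adjusted p = 0.0075), and Idi1, Mvd and Mvk at 0.02 to 0.08. In the other direction Fabp5 lay at -0.80 (adjusted p = 0.00067) and Npc2 at -0.63 (adjusted p = 0.022). Of 72 tested genes in the related lists, 0 were called.

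The ESdM lines 22 and 20 did not differ by the test in any of the 29 genes, and 0 of all genes were called (0%). At an unadjusted p below 0.05 there were 527 genes (4.11%), and 3 genes (0.0234%) had an adjusted p below 0.05 at any size. Of the 10 sterol synthesis genes 9 had a lower mean in ESdM 22, with a median of -0.32 where the median of all genes was 0. The largest were Sqle at -0.51 (95% interval -0.83 to -0.20, adjusted p = 0.82) and Dhcr7 at -0.66 (-1.19 to -0.12). Their intervals are not adjusted for the number of genes, and neither gene had an adjusted p below 0.05. Dhcr7 on ESdM 22 read 7.88, 7.91 and 6.79.

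**Figure D4:**
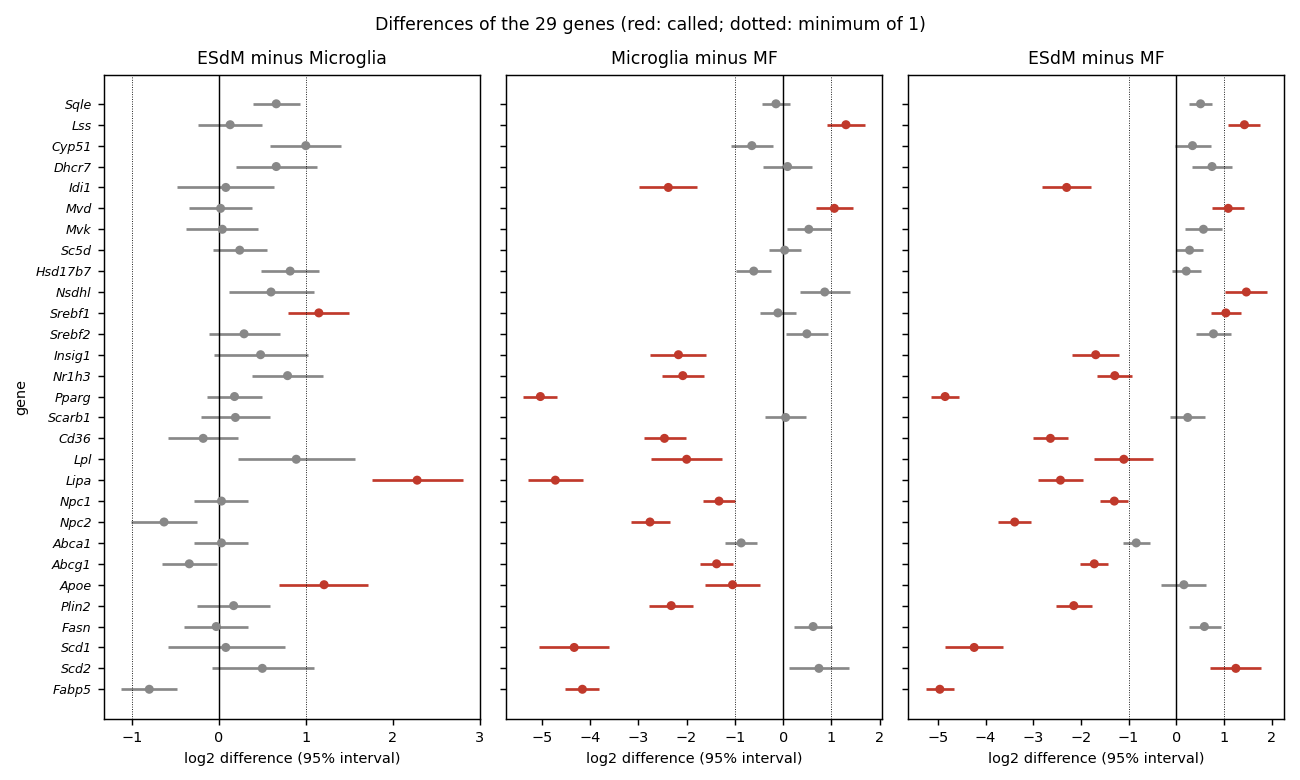
Log2 difference with 95% interval of the 29 genes for ESdM minus Microglia, Microglia minus MF and ESdM minus MF, which share groups; red marks called genes and dotted lines a difference of 1 either way. Lipa, Apoe and Srebf1 are red on the left (2.28, 1.21 and 1.15), and Pparg, Lipa, Scd1 and Fabp5 lie at -4.16 to -5.03 in the middle.

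MF arrays exceeded Microglia arrays in lipid uptake, lysosomal release, efflux, storage and fatty acid binding, while sterol synthesis was mixed. Of the 29 genes 14 were lower on Microglia arrays and 2, Lss and Mvd, higher, where 22.5% of all genes were called, 11.5% lower and 11% higher. Called lower were 5 of 6 uptake and lysosomal genes, 3 of 4 efflux and storage genes, 3 of 5 regulators, 2 of 4 fatty acid genes and 1 of 10 sterol synthesis genes. The counts take Npc1 and Insig1 by their brightest probe. They include Cd36, which passed the detection filter through MF arrays alone. The median of all 29 was -0.87, or -0.65 with undetected genes at their bound. Lss was 2.46-fold higher on Microglia arrays (1.30 ± 0.193) and Mvd 2.09-fold (1.06 ± 0.188). Both calls were lost with median scaling (0.91 and 0.64). Lss was also lost with the mean of all probes (0.64) and Mvd with no background correction (0.72). Some alternative processing or test also lost the lower calls of Abcg1, Apoe, Cd36, Insig1 and Npc1. MF arrays, like BM-DC and CD8 Tnaive arrays, lay on chips that held no other group, so chip and cell type cannot be told apart in comparisons with them. Mvd was not called without MF array 3 (0.91), Apoe not without MF array 1 (-1.0) or 3 (-0.96), and Abca1 was called without MF array 2 (-1.05).

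In the related lists 23 of 72 tested genes were called between these groups. Higher on Microglia arrays were Lrp8, an apolipoprotein E receptor (3.11 ± 0.15, adjusted p = 2.7e-15), Acss2, which makes acetyl-CoA from acetate (3.00), and Dgat2, a triglyceride synthase (at least 4.55-fold). Lower were Sort1, a sorting receptor that binds lipases and lipoproteins (at least 63.5-fold), Mgll, which cleaves monoglycerides (-4.69), and the scavenger receptor Msr1 (at least 6.36-fold).

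ESdM arrays differed from MF arrays in the same lists, with 5 genes called higher and 13 lower of the 29, where 23.6% of all genes were called, 11.5% higher and 12.1% lower. This comparison shares the MF arrays with the preceding one and is given beside it only. Its counts too take Npc1 and Insig1 by their brightest probe and include Cd36. With the mean of all probes Insig1 was not called (-0.38). Higher were Nsdhl (1.47 ± 0.214, adjusted p = 1.6e-06), Lss (1.43), Scd2 (1.25), Mvd (1.09) and Srebf1 (1.04). Each of these calls was lost in some alternative processing or test, as were the lower calls of Insig1, Lpl, Npc1 and Nr1h3. Nsdhl (0.88) and Srebf1 (0.61) were lost with no background correction. Lss (0.75) was lost with the mean of all probes, and Scd2 (0.91) and Mvd (0.72) with median scaling. The lowest were Fabp5, 31.2-fold (-4.96), Pparg, detected on 1 of 6 ESdM arrays (at least 25.4-fold), and Scd1, at least 15.7-fold. Apoe, at 0.16 (95% interval -0.31 to 0.63), was not called. Single arrays decided some small calls: Mvd was lost without ESdM 22 array 3 (0.99) or MF array 3 (0.94), Srebf1 without ESdM 22 array 2 (1.00) or MF array 1 (0.96), and Lpl without MF array 1 (-0.99), while Abca1 was called without MF array 2 (-1.02). The related lists had 21 of 72 called, with Lrp8 (2.95), Dgat2 and Acss2 highest and Sort1 (-5.80), Mgll and Msr1 lowest.

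Between the bone marrow groups Apoe and Lipa differed most. All 5 regulators were called, Srebf2 and Insig1 by the probe used only. Of the 29 genes 14 were higher on MF than on BM-DC arrays and 2, Mvd and Srebf2, lower, where 17.7% of all genes were called, 10.2% higher and 7.51% lower. Cd36 and Abca1 are among the 14 but passed the detection filter through MF arrays. In sterol synthesis 5 of 10 were higher (Idi1, Dhcr7, Lss, Hsd17b7 and Cyp51, from 2.19 down to 1.10), with a list median of 1.03 and of all genes of 0.03. Of the regulators Nr1h3, Pparg (2.08), Srebf1 (1.51) and Insig1 were higher and Srebf2 lower, with a list median of 1.51, and Cd36 was at least 4.93-fold higher. Lipa was 13.1-fold higher (3.71 ± 0.275, adjusted p = 2.6e-11) and Nr1h3 4.40-fold (2.14 ± 0.214). Mvd was 3.12-fold lower on MF arrays (-1.64 ± 0.188, adjusted p = 7e-08). Other probes of Srebf2 (0.21) and Insig1 (0.15 and 0.05) showed no such difference as the probes used (-1.12 and 1.24). Srebf1 lost its call with no background correction (0.56). Some alternative processing or test also lost the calls of Dhcr7, Lss, Hsd17b7, Cyp51, Srebf2, Insig1, Npc2 and Abca1. The granulocyte markers on the BM-DC arrays moved with these differences, and their part was not tested.

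BM-DC array 1 had the highest value of its group in 8 of the 10 sterol synthesis genes (38.6% of all genes were highest on it), and in Scd1 and Scd2 (8.90, against 7.21 and 7.38). Without it Sqle (1.13) and Scd1 (1.34) were called higher on MF arrays, Sqle by the brighter of its probes only, as was Lpl (1.01), and Srebf2 (-0.87), Npc2 (0.97) and Abca1 (1.00) were not called. Cyp51 was not called without MF array 2 (0.97) or BM-DC array 3 (0.84), Npc2 without MF array 4 (0.98), and Abca1 without MF array 1 (0.86) or 4 (0.96), while Lpl was called without MF array 3 (1.03). In the related lists 24 of 72 were called. Ch25h, which makes an oxysterol (at least 28.6-fold), Hilpda, a droplet protein that inhibits lipolysis (-4.06), and Abcg4, a sterol transporter (at least 3.99-fold), were lower on MF arrays. Nceh1, a cholesteryl ester hydrolase (2.01), Lbr, a sterol reductase and lamin B receptor (1.87), and Hadhb of fatty acid oxidation (1.79) were higher.

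Microglia arrays lay above BM-DC arrays in Apoe, Lss and Dhcr7, and below them in Pparg, Fabp5 and Scd1. Of the 29 genes 6 were higher and 9 lower, where 27.3% of all genes were called, 14.9% higher and 12.4% lower. The 9 take Npc1 and Lpl by their brightest probe only, and Lpl was not called with the mean of its probes (-0.51). In sterol synthesis 3 of 10 were higher (Lss, Dhcr7 and Nsdhl) and 0 lower, with Mvd at -0.58 (adjusted p = 0.019) and Idi1 at -0.18. Apoe, detected on 2 of 3 BM-DC arrays, was at least 30.5-fold higher (5.01 ± 0.289, adjusted p = 8.4e-14), Lss 8.55-fold (3.10 ± 0.206) and Dhcr7 4.04-fold (2.01 ± 0.259). Fabp5 was 11.5-fold lower (-3.52), Scd1 at least 10.1-fold and Pparg at least 5.98-fold. The BM-DC arrays carried the granulocyte markers here too. The Scd2 arrays overlapped, and its call was lost without Microglia array 2 (0.96), BM-DC array 2 (0.72) or 3 (0.80). Lipa, at -1.0, was not called without Microglia array 1 (-0.85) or BM-DC array 1 (-0.91) or 3 (-0.96), Lpl not without BM-DC array 1 (-0.98), and Hsd17b7 was called without that array (1.04). Of the related genes 23 of 72 were called. Fdps, which makes farnesyl diphosphate, was highest (2.87), followed by Acss2 (2.59) and Lrp8 (2.51), and Sort1, Hilpda (-5.46) and Ch25h (at least 27.7-fold) were lowest.

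Astrocyte arrays lay above Microglia arrays in Scd1, Apoe and Lipa and below them in most sterol enzymes that differed. Of the 29 genes 5 were higher and 10 lower, where 35.4% of all genes were called, 18.8% higher and 16.6% lower. Sterol synthesis had 1 of 10 higher and 4 lower (Lss, Mvd, Dhcr7 and Nsdhl). Among these sterol calls Lss and Mvd alone held in every alternative processing or test. Dhcr7 (-0.73) and Nsdhl (-0.64) were lost with no background correction, and Hsd17b7 (0.67) with the mean of all probes. The calls of Lpl (-0.67 with that mean), Fabp5 (-0.58 with no background correction), Pparg and Srebf2 were also lost in some alternative. Apoe was 4.41-fold higher (2.14 ± 0.289, adjusted p = 3.9e-07) and Lipa 3.37-fold (1.75 ± 0.294, and 1.61 on a second probe). On these Astrocyte arrays 6 of 10 tested microglia core markers were also called higher and 0 lower. Of 11 macrophage lineage markers 3 were higher (C1qa, C1qb and C1qc) and 4 lower. The part of these markers' cells in the differences was not tested. Pparg was at least 1.92-fold higher on the probe used but -0.04 on a second. Chip and cell type cannot be told apart here, since Astrocyte and Neuron arrays shared a chip that held no other group. Insig1 was called without Astrocyte array 3 (1.05), although its other probes ran the opposite way (-1.03 and -1.14), and Scarb1 was called without Microglia array 3 (-1.10). Among related genes 29 of 72 were called, with Sort1 (at least 188-fold), Ch25h (at least 22.5-fold) and the lipoprotein receptor Vldlr (at least 9.50-fold) highest. Fdps (-3.65), Lrp8 (-3.49) and Acsl4, which activates long fatty acids (-2.32), were lowest.

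Neuron arrays lay below Microglia arrays in 6 of 10 uptake, efflux and storage genes, and above them in 0 of these. Of the 29 genes 12 were lower and 1, Scd1, higher, where 40.5% of all genes were called, 20.5% lower and 20.1% higher. Apoe was 18.2-fold lower (-4.18 ± 0.289), Lipa, detected on 2 of 3 Neuron arrays, at least 10.6-fold (-3.46 ± 0.294), Lpl 9.74-fold (-3.28 ± 0.379) and Plin2 at least 10.1-fold. In sterol synthesis 3 of 10 were lower (Lss at -2.40, Nsdhl and Mvk), and the list median was 0.04. Mvk, at -1.0, was undetected on Neuron arrays (at least 1.62-fold) and its call was lost without Neuron array 1 (-0.97) or 2 (-0.97) or Microglia array 1 (-0.99) or 3 (-0.96). Nsdhl was lost without Neuron array 1 (-0.68) or Microglia array 2 (-0.99) and Scd2 without Neuron array 3 (-1.0). Cyp51 (1.03), Sc5d (1.02) and Srebf2 (-1.07) were called without Neuron array 1, and Srebf2 (-1.18) and Scarb1 (-1.12) without Microglia array 3. The related lists had 34 of 72 called, 25 of them lower. Plin3, a droplet coat protein (-4.11), Acadm (-4.04) and Cpt2 (-3.78), both of fatty acid oxidation, were lowest, and Sort1 (at least 167-fold), Vldlr (at least 58.2-fold) and Abcg4 (at least 17.3-fold) highest.

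On the shared chip, Astrocyte arrays were higher in Apoe, Lipa, Lpl and Scd1, and Neuron arrays in the sterol enzymes Mvd, Dhcr7 and Cyp51, while the sterol enzyme Hsd17b7 was higher on Astrocyte arrays (1.25 ± 0.186). Of the 29 genes 10 were higher on Astrocyte arrays and 4 (Mvd, Fabp5, Dhcr7 and Cyp51) lower, where 32.4% of all genes were called, 17.6% higher and 14.8% lower. Of these 14 calls 3 (Apoe, Lipa and Scd1) held in every alternative processing or test. Mvd (-0.94) and Dhcr7 (-0.79) were lost with no background correction, and Hsd17b7 (0.64) and Pparg (0.63) with the mean of all probes. Cyp51 and Lpl were lost with limma's treat. Lipa was at least 35.8-fold higher (5.21 ± 0.294, adjusted p = 2.6e-14), Scd1 6.91-fold (2.79 ± 0.378) and Lpl 3.77-fold (1.91 ± 0.379). Also higher on Astrocyte arrays were 10 of 11 macrophage lineage markers, with a list median of 3.87, and 6 of 10 tested microglia core markers, and their part in these differences was not tested. Mvd was 3.91-fold lower (-1.97 ± 0.201, adjusted p = 3.5e-09) and Fabp5 3.43-fold (-1.78 ± 0.180). Neuron array 1 was the lowest of its group in 9 of 10 sterol synthesis genes (42.2% of all genes were lowest on it). Without it Sqle (-1.03) and Lss (-1.07) were called lower, and Insig1 was not called (0.83). Without Astrocyte array 2 the changes were the same, with Sqle at -1.02, Lss at -1.05 and Insig1 at 0.66, and Mvk was called without Astrocyte array 1 (1.05). Related genes had 35 of 72 called, with Ch25h (4.20), Cpt2 (3.83) and Nceh1 (3.72) highest and the fatty acid carrier Fabp3 (-3.40), Vldlr (-2.62) and Elovl6, which lengthens fatty acids (-2.35), lowest.

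CD8 Tnaive arrays lay below MF arrays in 23 of the 29 genes and above in 0, where 31.1% of all genes were called, 16.7% lower and 14.4% higher. Npc1 is counted by its brightest probe, and with the mean of its probes it was not called (-0.92). Cd36 and Abca1 are counted too, although they passed the detection filter through MF arrays. The median of the 29 was -2.43, or -2.26 with undetected genes at their bound, and of all genes -0.01. In sterol synthesis 8 of 10 were lower, with Sqle, Cyp51 (7.45-fold), Hsd17b7 (6.42-fold) and Idi1 (at least 5.51-fold) leading. Apoe, detected on 4 of 5 CD8 Tnaive arrays, was at least 41.6-fold lower (-5.39 ± 0.237, adjusted p = 1.3e-16) and Lipa 13.6-fold (-3.77 ± 0.242). Abcg1 (8.29 on average, against 9.03) and Srebf2 (6.83 against 7.20) were among the 6 not called. All 23 calls remained without CD8 Tnaive arrays 1 and 3, and Abca1 was not called without MF array 1 (-0.87) or 4 (-0.97). Among related genes 26 of 72 were lower, led by Sort1 (-5.29), Mgll (-4.66) and the sterol oxidase Msmo1 (-4.44). Another 8 were higher, led by Acss2 (3.44), the triglyceride synthase Dgat1 (2.40) and the lipid transporter Abca7 (2.39).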

How the data were processed

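RNA was lysed in TRIzol, cleaned on RNeasy columns and labelled as biotinylated cRNA, per the labels' protocols. The authors deposited a raw bead intensity and a detection p-value for each of 45281 probes on 27 arrays, with no background correction or normalisation per the file headers, and a series matrix of processed intensity, used as an alternative. The matrix was linear, above 0 and uncentred, with medians of 89.2 to 89.3 and the raw values' rank order; how it was scaled was not given in the sources used here. In R 4.3.3, limma 3.58.1 (neqc) corrected background from the detection p-value, added an offset of 16 and normalised quantiles. A probe entered the tests if 3 or more arrays had a detection p under 0.05, which left 25001, and each gene was read from its named probe of highest mean (34885 probes had 1 symbol, 18 several and 10378 none). Groups were fitted together (19 residual degrees of freedom) with Benjamini-Hochberg adjustment over 12814 genes. The number of arrays, not depth, limits precision. The code was tested on simulated data. The members and lists were chosen with earlier results of these data known. Every member is accounted for, and up to 3 called genes per direction are named from the related lists; all other names were chosen after values were seen.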

Additional observations from a re-analysis of the deposited data

Results flagged for a closer look

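In 8 of 53 sets of values, each 1 gene on the 4 MF or the 5 CD8 Tnaive arrays, 1 array lay far from the others by Dixon's criterion. Chance alone meets it in about 1 in 20 independent sets. These sets share arrays and are not independent. Array 2 of MF was apart in 4 genes: Mvk at 5.00 (others 4.66 to 4.69), Fasn at 4.95 (4.35 to 4.38), Lipa at 13.05 (13.71 to 13.82) and Scd1 at 8.43 (8.64 to 8.67). Array 1 of MF was apart in Srebf1 at 6.17 (6.45 to 6.51), and array 3 in Plin2 at 10.76 (10.01 to 10.14). Among CD8 Tnaive arrays, array 4 was apart in Lipa at 9.21 (9.85 to 10.09) and array 5 in Sc5d at 4.68 (4.22 to 4.25), where only that array detected the gene. No cause of these values was tested.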

How the results depend on the processing

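No alternative turned the direction of a call. Counts of genes called stayed within 1.5 times of the main count except in these cases, whose cause was not tested unless stated. With limma's treat, which by construction asks for a difference shown to exceed 1, ESdM against Microglia gave 1, ESdM against MF 10, Microglia against BM-DC 9, MF against BM-DC 9, Astrocyte against Microglia 8 and Astrocyte against Neuron 6. With no background correction, which shrinks differences of dim genes, Microglia against BM-DC gave 9, Neuron against Microglia 8 and Astrocyte against Neuron 7. With the series matrix Neuron against Microglia gave 8 and Astrocyte against Neuron 8, and within the second shared chip ESdM against Microglia gave 1. Leaving out single arrays gave 3 to 4 (ESdM against Microglia), 0 (ESdM 22 against 20), 14 to 17 (Microglia against MF), 16 to 19 (ESdM against MF), 13 to 15 (Microglia against BM-DC), 14 to 17 (MF against BM-DC), 15 to 16 (Astrocyte against Microglia), 12 to 14 (Neuron against Microglia), 14 to 15 (Astrocyte against Neuron) and 22 to 23 (CD8 Tnaive against MF). Replicate numbers did not pair the arrays (correlations from -0.36 to 0.25), and the replicate block gave 3, 0, 16, 17, 15, 16, 15, 13, 14 and 23 in that order, with Srebf1 of ESdM against MF at 0.99. Srebf1 of ESdM against Microglia lost its call with no background correction (0.67), an offset of 50 (0.89) and the series matrix (0.72). Calls that held in every alternative numbered 1 of 3, 9 of 16, 9 of 18, 8 of 15, 7 of 16, 8 of 15, 8 of 13, 3 of 14 and 17 of 23, leaving out the comparison with 0. Leaving out CD8 Tnaive arrays 1 and 3 was chosen after seeing the data.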

Other observations

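Within groups, the sterol synthesis genes often had their extremes on the same array. Astrocyte array 2 was the highest of its group in 8 of 10 genes (31.9% of all genes were highest on it), with Cyp51 at 8.28 against 7.86 and 7.78. BM-DC array 1 was highest in 8 of 10 and Neuron array 1 lowest in 9 of 10, as given above, and ESdM 20 array 3 was lowest in 6 of 10 (34.4% of all genes), with Cyp51 at 9.57 against 9.93 and 9.82. On CD8 Tnaive arrays no array was highest in more than 5. These counts were made after seeing the values and were not tested.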
